A study of Homo sapiens with 7 samples.

Results

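A set of 10 amino acid transporter genes was followed here through 7 RNA-seq libraries of HCT116 p53-/- cells. They were chosen by symbol, with earlier results of these data known: SLC7A5, SLC3A2, SLC1A4, SLC1A5, SLC38A1, SLC38A2, SLC6A9, SLC7A1, SLC7A6 and SLC43A1. All 10 were found among the 19699 genes of the deposited count table, and all 10 passed the filter on low counts in each test. HCT116 is a long-established cell line from a human colon carcinoma. All 7 libraries come from its derivative that lacks p53, a transcription factor. The cells had been infected with wild-type p53 (WT), p53-M133T, p53-R273H or a control (vector). M133T and R273H each exchange 1 amino acid of the part of p53 that binds DNA. The control is named a vector in the design text and a vehicle in the treatment protocol. The last 3 lines were each sequenced without and with arsenic trioxide (ATO), an arsenic compound used against leukemia, at 1 µg/ml for 24 h. WT cells were sequenced without ATO. Each of the 7 groups held 1 library, so the lines served as replicates of ATO. The p-values rest on the spread between lines, combined to a varying degree with a spread pooled over genes. Where WT cells are compared, only the 3 other untreated lines give spread, since WT cells have 1 library. Nothing in the labels says how many clones or cultures stand behind a library.

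Cells take up amino acids through carriers that differ in substrate and in the way they are driven. SLC7A5 (LAT1) exchanges large neutral amino acids such as leucine, and reaches the membrane only when bound to SLC3A2 (4F2hc, CD98), a single-span glycoprotein that serves as heavy chain of several light chains. SLC7A6 (y+LAT2) is another of these light chains and exchanges cationic against neutral amino acids. SLC43A1 (LAT3) carries branched-chain amino acids without a heavy chain. SLC1A5 (ASCT2) and SLC1A4 (ASCT1) are sodium-dependent exchangers of small neutral amino acids, and SLC1A5 is known for glutamine uptake in carcinoma cells. SLC38A1 (SNAT1) and SLC38A2 (SNAT2) import glutamine and alanine together with sodium, SLC7A1 (CAT1) imports arginine and lysine, and SLC6A9 (GLYT1) imports glycine. Many of these genes are known targets of ATF4, the transcription factor of the amino acid and stress response.

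The promoters of the 10 genes were read from RefSeq on GRCh38.p14, as windows from 250 bases before to 50 bases after each listed start site. All 10 genes matched, with 17 windows between them. Both strands were searched for TGATGNAA, the core of the element that ATF4 binds with C/EBP partners, and for CACGTG, the E-box bound by MYC and related factors. The stretches that hold the first motif are printed because they lie in genes whose transcripts differed between the conditions below. SLC7A5, SLC6A9, SLC7A6 and SLC43A1 also rose with ATO below, and their windows did not hold the first motif. Which listed start these cells used was not tested. Each stretch has 30 bases on the strand of the gene, and the capitals mark the match or its reverse complement.
SLC3A2, chr11:62881719-62881748, plus strand: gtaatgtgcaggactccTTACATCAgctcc
SLC1A4, chr2:64989381-64989410, plus strand: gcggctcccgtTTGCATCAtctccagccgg
SLC1A5, chr19:46784893-46784922, minus strand: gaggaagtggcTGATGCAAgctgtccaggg
SLC38A1, chr12:46266502-46266531, minus strand: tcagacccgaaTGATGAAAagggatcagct
SLC7A1, chr13:29595663-29595692, minus strand: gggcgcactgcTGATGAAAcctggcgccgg
Thus 5 of the 17 windows, in 5 of the 10 genes, held TGATGNAA, against 3.62% of 35116 windows of all genes. Genes with several listed starts had several chances to match, and counted by gene the share was 4.46% of 27305. The match lay in the same orientation as the gene in SLC1A5, SLC38A1 and SLC7A1 and in the opposite one in SLC3A2 and SLC1A4. The E-box was found in 3 of the 17 windows, against 7.26% of all windows. Stretches of SLC7A5 and SLC43A1 are shown in the same way.
SLC7A5, chr16:87869619-87869648, minus strand: gccggacgacgCACGTGctccgagctgggc
SLC43A1, chr11:57515796-57515825, minus strand: agcgggcgagtCACGTGcgcgtgaaactcg
The motif TGACNNNGC, the core of the antioxidant element bound by NRF2, was found in 5 of the 17 windows, against 13.3% of all windows. These windows belonged to SLC7A5, SLC3A2, SLC1A5, SLC7A1 and SLC7A6. None of the matches in these windows overlapped another. SLC38A2 and SLC6A9 held none of the 3 motifs in their windows. A match says that the letters are there and a missing one that they are not in the window, and neither shows binding.

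The 250 bases before the start site are printed for SLC7A5 and SLC38A2, because SLC7A5 had the highest level of the 10 genes in 6 libraries and SLC38A2 in the WT library, and SLC38A2 was the one that did not rise with ATO. The E-box is in capitals.
SLC7A5, chr16:87869508-87869757, minus strand: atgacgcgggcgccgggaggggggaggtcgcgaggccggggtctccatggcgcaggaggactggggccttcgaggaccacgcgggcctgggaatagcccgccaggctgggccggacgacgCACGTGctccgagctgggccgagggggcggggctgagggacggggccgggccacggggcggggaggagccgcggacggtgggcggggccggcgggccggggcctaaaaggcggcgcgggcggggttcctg
SLC38A2, chr12:46372774-46373023, minus strand: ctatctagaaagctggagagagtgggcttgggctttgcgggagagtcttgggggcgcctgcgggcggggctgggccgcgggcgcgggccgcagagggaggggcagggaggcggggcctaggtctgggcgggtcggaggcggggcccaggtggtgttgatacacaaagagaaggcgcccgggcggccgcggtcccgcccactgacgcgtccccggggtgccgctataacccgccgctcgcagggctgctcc
The GC content of the 300-base windows was 80.3% for SLC7A5 and 72.0% for SLC38A2, within a range over the 17 windows of 43.3% to 82.0%.

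Total counts ran from 25062996 in the WT library to 39297534 in the M133T library. Levels are given as CPM, counts in 1000000 counts of a library, after scaling by the trimmed mean of M-values (TMM). An uncounted gene could still have had up to 3 counts by counting error, which is 0.0761 to 0.116 CPM. The lowest count of any of the 10 genes was 48, for SLC43A1 in the WT library. The WT library carries another numeric prefix in its description (190612) than the other 6 (190312), so what the prefix stands for and the genotype cannot be told apart. Of 10 colon epithelial markers, 7 were at 1 CPM or more in every library, among them EPCAM, and VIL1 and LGALS4 were below 1 CPM in all 7. Of 10 leukocyte markers, 5 reached 1 CPM in the WT library and 2 in each other library, with summed levels of 72.9 CPM and 8.33 to 11.3 CPM. MPO, a myeloid enzyme, had 868 counts in the WT library and 0 to 31 in the others. CD68 (716 against 139 to 330), LYZ (149 against 0 to 9), LAPTM5 (29 against 0 to 4) and CD53 (10 against 0 to 2) were also higher there. CORO1A (99 against 77 to 172) and FCER1G (7 against 1 to 11) lay inside the range of the others. PTPRC, SPI1 and TYROBP had at most 4 counts in any library. Of 6 fibroblast markers, 1 reached 1 CPM in each library.

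Levels of different genes were compared per kilobase of exon. In vector cells the order ran from SLC7A5 at 265 CPM per kb through SLC38A2 (124), SLC1A5 (119), SLC3A2 (77.3), SLC38A1 (49.3) and SLC7A1 (46.6) to a low group of SLC7A6 (7.89), SLC1A4 (3.39), SLC6A9 (2.65) and SLC43A1 (2.11). In untreated M133T and R273H cells SLC1A5 (126 and 115 CPM per kb) stood above SLC38A2 (104 and 114), so these neighbours did not keep an order across the 3 untreated lines. SLC38A1 and SLC7A1 also lay close, at 40.1 and 39.4 CPM per kb in M133T cells. In WT cells SLC38A2 stood first at 142 CPM per kb and SLC7A5 second at 94.9. With ATO, SLC7A5 stood first in all 3 lines at 388 to 441 CPM per kb, and SLC38A2 took place 4 at 109.7 to 114. Exon length includes untranslated regions, and these levels depend on it.

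**Figure D1:**
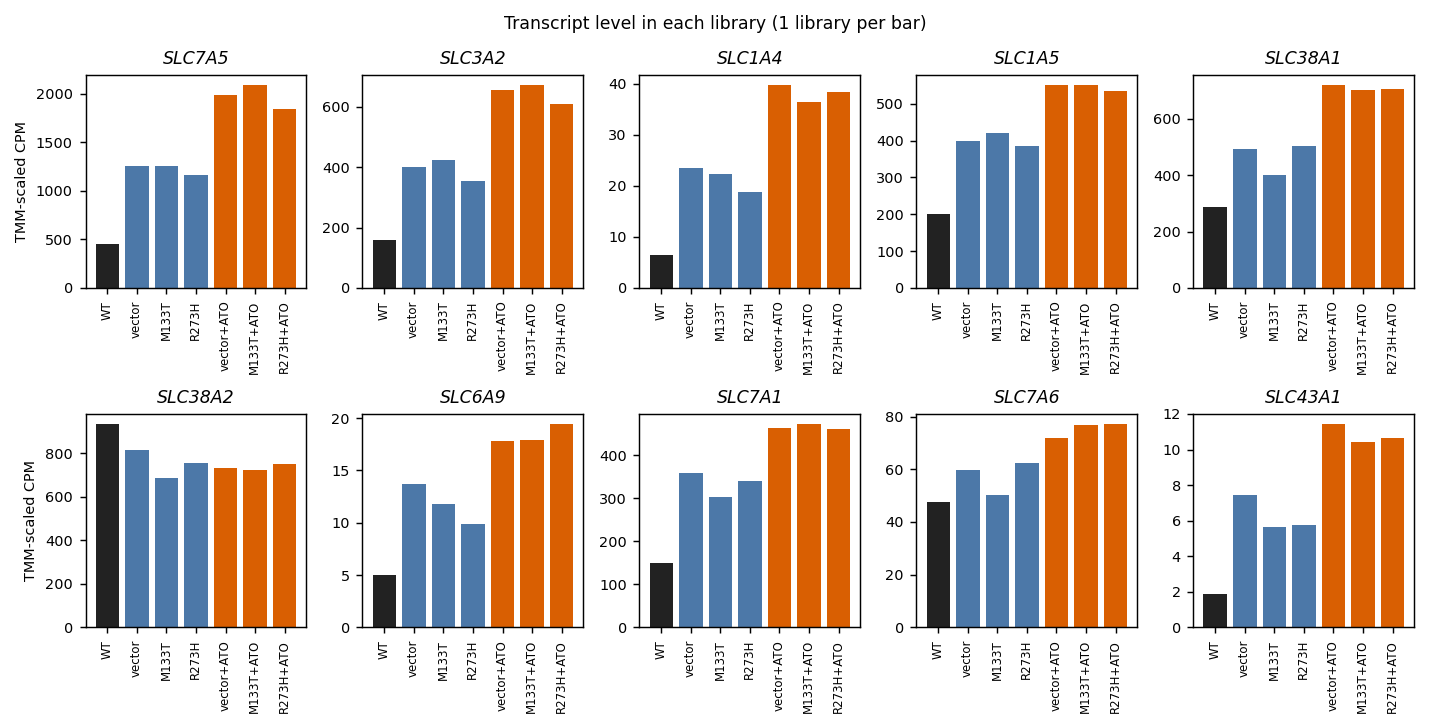
Transcript level in TMM-scaled CPM of each of the 10 transporter genes, with 1 bar for each library: WT in black, the 3 untreated lines in blue and the 3 lines with ATO in orange. Every gene but SLC38A2 is lowest in WT cells and highest in the ATO libraries, and each vertical scale starts at 0 and belongs to 1 gene.

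The first comparison asked what ATO did to these transcripts across the vector, M133T and R273H lines. Transcripts of 9 of the 10 genes were called higher with ATO and none was called lower. Heavy chain, light chains, glutamine carriers, the arginine carrier and the glycine carrier were all among those that rose, by 1.31-fold to 1.77-fold, and SLC38A2 was the one that did not pass the test. Over all 13572 genes tested, 22.3% were called higher and 20.9% lower. The median log2 fold change of the 10 genes was 0.62, against 0.00 over all genes tested. The test was edgeR's quasi-likelihood test with the line as a block, adjusted over all genes by Benjamini-Hochberg.

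SLC7A5 (ENSG00000103257, hg38 chromosome 16, 87830023 to 87869488, minus strand), the leucine exchanger, was counted at 1257 CPM in vector, 1258 CPM in M133T and 1161 CPM in R273H cells without ATO. With ATO the same lines stood at 1982, 2093 and 1840.4 CPM. The 3 treated libraries lay above the 3 untreated ones with no overlap, and M133T cells with ATO were the highest. The log2 fold change was 0.68 (SE 0.047; adjusted p = 7.01e-05), or 1.6-fold. Its heavy chain SLC3A2 (ENSG00000168003, chromosome 11, 62856102 to 62888875, plus strand) went from 400.1 to 655 CPM in vector, from 425 to 673 CPM in M133T and from 353 to 610.1 CPM in R273H cells. The groups did not overlap, and the log2 fold change was 0.71 (SE 0.052; adjusted p = 8.25e-05). The third heterodimer gene, SLC7A6 (ENSG00000103064, chromosome 16, 68264516 to 68301823, plus strand), went from 59.9 to 72.0 CPM in vector, from 50.1 to 76.8 CPM in M133T and from 62.3 to 77.2 CPM in R273H cells. It rose by 0.39 on the log2 scale (SE 0.078; adjusted p = 0.00562), the smallest rise of the 9. Of its 7588 exon bases, 3371 also belong to SLC7A6OS on the opposite strand, which stood at 28.0 to 36.6 CPM, and without a known strand setting reads of the pair cannot be told apart. The same limit holds over shorter stretches for SLC1A5 (780 exon bases shared with an antisense gene), SLC6A9 (404 with CCDC24) and SLC7A5 (271 with an antisense gene).

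SLC1A4 (ENSG00000115902, chromosome 2, 64988477 to 65023865, plus strand), the exchanger of alanine, serine and cysteine, showed the largest log2 fold change of the 10, 0.83 (SE 0.079; 1.77-fold; adjusted p = 0.000249). It went from 23.5 to 39.9 CPM in vector, from 22.3 to 36.4 CPM in M133T and from 18.8 to 38.5 CPM in R273H cells. The treated libraries lay close together, and the untreated R273H library was the lowest of the 6. The related glutamine exchanger SLC1A5 (ENSG00000105281, chromosome 19, 46774883 to 46788594, minus strand) went from 398 to 552 CPM in vector, from 421 to 551 CPM in M133T and from 384 to 534 CPM in R273H cells. Its rise was smaller in size, at 0.44 (SE 0.05; 1.36-fold; adjusted p = 0.000511), again without overlap between treated and untreated libraries.

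The glutamine importers SLC38A1 and SLC38A2 parted. SLC38A1 (ENSG00000111371, chromosome 12, 46183063 to 46270017, minus strand) went from 493 to 720.0 CPM in vector, from 401 to 699.6 CPM in M133T and from 504 to 703 CPM in R273H cells. It rose by 0.60 on the log2 scale (SE 0.07; 1.52-fold; adjusted p = 0.000529). SLC38A2 (ENSG00000134294, chromosome 12, 46358189 to 46372867, minus strand) stood at 817, 685 and 755 CPM in untreated vector, M133T and R273H cells. With ATO these lines had 733, 724 and 752 CPM. Treated and untreated libraries overlapped, and the treated ones lay inside the untreated range. The log2 fold change was -0.03 (SE 0.06; adjusted p = 0.69), and it was -0.19 (adjusted p = 0.0152) after a correction for exon length and GC content. The ratio in single lines was 0.898 in vector (95% counting interval 0.883 to 0.913), 1.06 in M133T (1.04 to 1.08) and 0.996 in R273H cells (0.979 to 1.01).

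SLC7A1 (ENSG00000139514, chromosome 13, 29509410 to 29595688, minus strand), the arginine and lysine importer, went from 358 to 464 CPM in vector, from 303 to 473 CPM in M133T and from 341 to 461 CPM in R273H cells. Its 3 treated values lay close together, above all 3 untreated ones, and the log2 fold change was 0.48 (SE 0.065; adjusted p = 0.00104). SLC6A9 (ENSG00000196517, chromosome 1, 43991500 to 44031467, minus strand), the glycine importer, was a low transcript that went from 13.7 to 17.8 CPM in vector, from 11.8 to 17.9 CPM in M133T and from 9.87 to 19.4 CPM in R273H cells. The log2 fold change was 0.64, with the largest SE of the 10 (0.12; adjusted p = 0.0035). SLC43A1 (ENSG00000149150, chromosome 11, 57484534 to 57515786, minus strand), the branched-chain carrier and the lowest of the 10 per kb, went from 7.44 to 11.4 CPM in vector, from 5.65 to 10.4 CPM in M133T and from 5.77 to 10.6 CPM in R273H cells. It rose by 0.79 on the log2 scale (SE 0.1; 1.72-fold; adjusted p = 0.000936).

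Summed over the 10 genes, the level was 3583 to 3828 CPM in the untreated lines and 5047 to 5355 CPM with ATO. The mitochondrial share of counts was lower with ATO in each line, by library 2.3% against 3.69% in vector, 2.35% against 4.59% in M133T and 3.64% against 3.77% in R273H cells, and its part in these rises was not tested. In bulk RNA, fewer cells of a type and less RNA per cell cannot be told apart. Taken 1 line at a time, none of the 10 genes reached 2-fold with ATO on the scale of log2(CPM + 1), where 0.671% of 12661 genes did so upward in vector, 1.35% in M133T and 0.592% in R273H cells. SLC1A4 in R273H cells came closest, with a ratio of 2.04 (1.86 to 2.25) without the added 1. The intervals reflect counting error alone, and reads are not independent molecules where no molecular identifiers are counted.

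**Figure D2:**
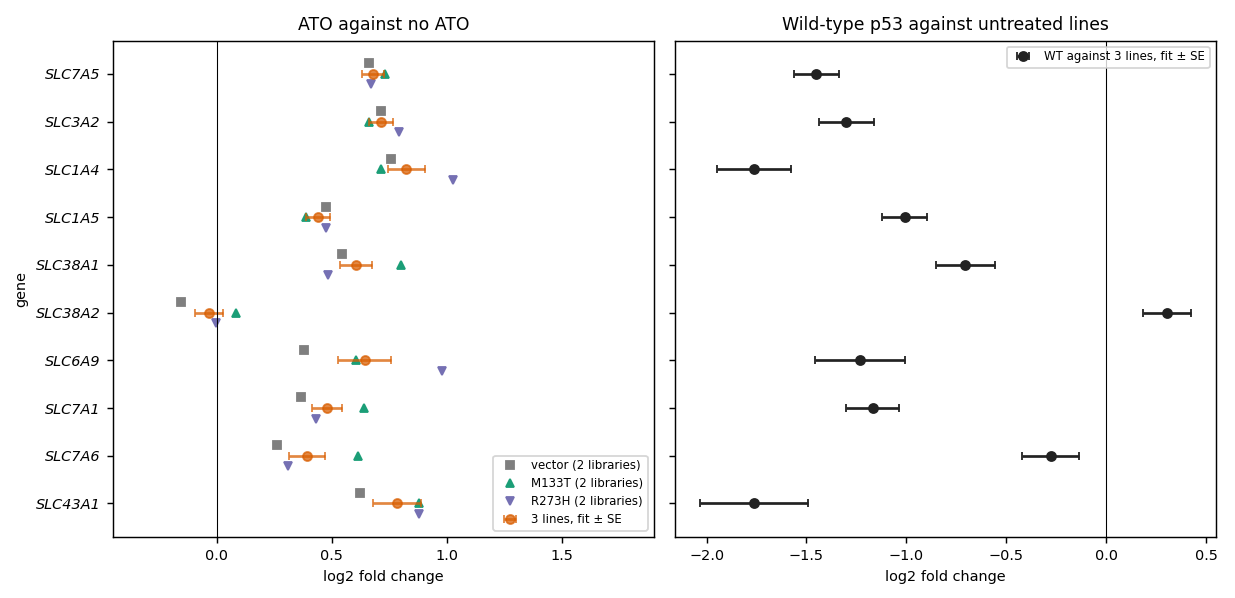
Log2 fold change of each transporter gene, with ATO against no ATO on the left and for WT cells against the 3 untreated lines on the right. Circles are fitted values with their standard error, and squares and triangles are the log2 ratios of single lines (2 libraries each). SLC38A2 lies near 0 on the left and above 0 on the right, where the other 9 genes lie below 0.

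The next question was whether the 3 lines answered ATO alike. Each line's ATO effect was tested against the mean effect of the other 2. In M133T cells the effect was larger for SLC38A1 by 0.29 on the log2 scale (SE 0.093; adjusted p = 0.0304) and for SLC7A6 by 0.33 (SE 0.1; adjusted p = 0.0198). These were 2 of the 10 genes, where 8.27% of 13974 genes were called in either direction. SLC7A1 had a difference of 0.24 (SE 0.091; adjusted p = 0.079). Both calls were lost with DESeq2, where the differences were about as large (0.30 with adjusted p = 0.072 for SLC38A1, 0.34 with adjusted p = 0.535 for SLC7A6). Both were also lost after the correction for length and GC content, where the differences were smaller (0.15 with adjusted p = 0.363, 0.25 with adjusted p = 0.13). The call of SLC38A1 was lost without the filter on low counts too, at a difference of 0.29 (adjusted p = 0.0517).

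For these 3 genes the lines lay farther apart without ATO than with it. That was not particular to them, since it also held for the others of the 10 except SLC7A5. The lines ran from 1161 to 1258 CPM for SLC7A5 without ATO and from 1840 to 2093 CPM with it. Without ATO, M133T cells stood at 0.813 of the vector level for SLC38A1 (0.796 to 0.831), 0.845 for SLC7A1 (0.824 to 0.866) and 0.837 for SLC7A6 (0.787 to 0.891). With ATO, the levels of the 3 lines lay between 699.6 and 720.0 CPM for SLC38A1, between 461 and 473 CPM for SLC7A1 and between 72.0 and 77.2 CPM for SLC7A6. No gene of the 10 was called in R273H cells, where 0.222% of genes were, and SLC6A9 was the one with an unadjusted p under 0.05 (difference 0.49 on the log2 scale, SE 0.2, adjusted p = 0.807). None was called in vector cells either, where edgeR called 0.0% of genes, no gene of the 10 had an unadjusted p under 0.05, and DESeq2 called 2 genes, neither of them one of the 10. A difference that misses the threshold does not show that the lines answered alike. For SLC7A5, the differences were 0.08 (SE 0.098) in M133T, -0.02 (SE 0.13) in R273H and -0.06 (SE 0.15) in vector cells.

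Without ATO, most of the 10 genes had somewhat lower values in the M133T and R273H libraries than in the vector library. Of the 10, 3 lay above 0 in M133T cells and 2 in R273H cells, with median log2 ratios of -0.22 and -0.11, against 0.01 over all genes in both. None was 2-fold apart from vector in M133T or in R273H cells, where 0.205% and 0.174% of genes were, in either direction. The ratios of M133T to vector cells ran from 0.76 for SLC43A1 (0.633 to 0.912) to 1.06 for SLC3A2 (1.04 to 1.09), and SLC7A5 had a ratio of 1.0 (0.988 to 1.01). Those of R273H to vector cells ran from 0.722 for SLC6A9 (0.627 to 0.831) to 1.04 for SLC7A6 (0.981 to 1.11). These ratios compare single libraries, with no replicates, and cannot tell a variant from its library. Both comparisons share the vector library.

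The comparison of WT cells with the 3 untreated lines addressed wild-type p53 in cells without ATO. Transcripts of 8 of the 10 genes were called lower and none higher in WT cells, where over 13901 genes 12.8% were called lower and 12.4% higher. The median log2 fold change of the 10 was -1.20, against 0.00 over all genes tested. SLC7A5 stood at 450.3 CPM in WT cells, below the 1161 to 1258 CPM of the other untreated lines (log2 fold change -1.45, SE 0.11, adjusted p = 0.000186). SLC3A2 stood at 160.2 CPM, below 353 to 425 CPM (log2 fold change -1.30, SE 0.14, adjusted p = 0.000628). The fitted ratio was 0.366-fold for the leucine exchanger and 0.406-fold for its heavy chain.

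The low transcripts SLC1A4 and SLC43A1 were farthest apart, both at 0.295-fold. SLC1A4 had 6.39 CPM in WT cells and 18.8 to 23.5 CPM in the other lines (log2 fold change -1.76, SE 0.18, adjusted p = 0.000579). SLC43A1 had 1.86 CPM, from 48 counts, against 5.65 to 7.44 CPM (log2 fold change -1.76, SE 0.27, adjusted p = 0.00304). SLC6A9 stood at 5.03 CPM against 9.87 to 13.7 CPM, at 0.425-fold (adjusted p = 0.00633). SLC7A1 stood at 149 CPM against 303 to 358 CPM, at 0.445-fold (adjusted p = 0.00082), and SLC1A5 at 200.2 CPM against 384 to 421 CPM, at 0.497-fold (adjusted p = 0.000774). For all of these the WT value lay outside the range of the 3 lines.

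SLC38A1 differed less, with 287 CPM in WT cells and 401 to 504 CPM in the other lines (log2 fold change -0.70, SE 0.15, adjusted p = 0.012). Without the vector library the log2 fold change was -0.65 and the adjusted p 0.05, and the call was lost. SLC7A6 stood at 47.6 CPM against 50.1 to 62.3 CPM and did not pass the test (log2 fold change -0.28, SE 0.14, adjusted p = 0.194). It passed without the M133T library (-0.37, adjusted p = 0.0154). SLC38A2 was the only 1 of the 10 with a higher value in WT cells, 934 CPM against 685 to 817 CPM, with a log2 fold change of 0.31 that did not pass (SE 0.12, adjusted p = 0.0998). It passed after the correction for length and GC content (0.27, adjusted p = 0.0387). Against vector cells alone, 6 of the 10 genes were at least 2-fold lower, where 1.96% of genes were. The summed level of the 10 was 2242 CPM in WT cells. The higher leukocyte marker sum and the other prefix of the WT library move with all of these differences, as does its mitochondrial share of counts, 1.41% against 3.69% to 4.59% in the 3 lines. Their part in the differences was not tested. The WT and ATO comparisons share the 3 untreated libraries, so their values for a gene are not independent.

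Ratios within a library set the partners against each other per kb of exon. The size of a ratio depends on the exon lengths used, and its order across libraries does not. SLC7A5 over SLC3A2 was 3.43 in vector (counting interval 3.36 to 3.49), 3.23 in M133T and 3.58 in R273H cells, 3.3, 3.4 and 3.29 in the same lines with ATO, and 3.07 (2.96 to 3.18) in WT cells. With ATO the ratio lay inside the untreated range in all 3 lines. SLC38A2 over SLC38A1 was 4.93 in WT cells (4.8 to 5.06), 2.27 to 2.59 in the untreated lines and 1.54 to 1.62 with ATO, and the 3 sets of libraries did not overlap. SLC1A5 over SLC1A4 was 65.3 (55.9 to 76.7) in WT cells, 35.2 to 42.5 in the untreated lines and 28.8 to 31.5 with ATO, also without overlap. SLC7A5 over SLC7A6 was 15.1 in WT cells, 29.8 to 40.1 in the untreated lines and 38.1 to 44.0 with ATO, with overlap between the last 2 sets.

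SLC3A2 also carries light chains outside the 10 genes. Of these, SLC7A11, the cystine and glutamate exchanger (xCT), took 4.12% to 6.64% of the summed light chain level per kb in the untreated lines and 11.9% to 14.9% with ATO, and 4.76% in WT cells. SLC7A5 took 89.8% to 93.1% in the untreated lines, 82.8% to 85.9% with ATO and 87.5% in WT cells. The size of these shares depends on the exon lengths used. By plain CPM, SLC7A11 stood at 677 and SLC7A5 at 1982 in vector cells with ATO. SLC7A8 (LAT2), a near relative of SLC7A5 with a broader range of neutral substrates, stood at 2.05 CPM per kb in WT cells and at 0.736 to 1.3 CPM per kb in the others. SLC7A7 and SLC7A10 had at most 13 counts in any library. The light chain sum was 272 to 293 CPM per kb in the untreated lines and 469 to 513 CPM per kb with ATO, above SLC3A2 (68.3 to 82.1 and 118 to 129.9 CPM per kb).

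**Figure D3:**
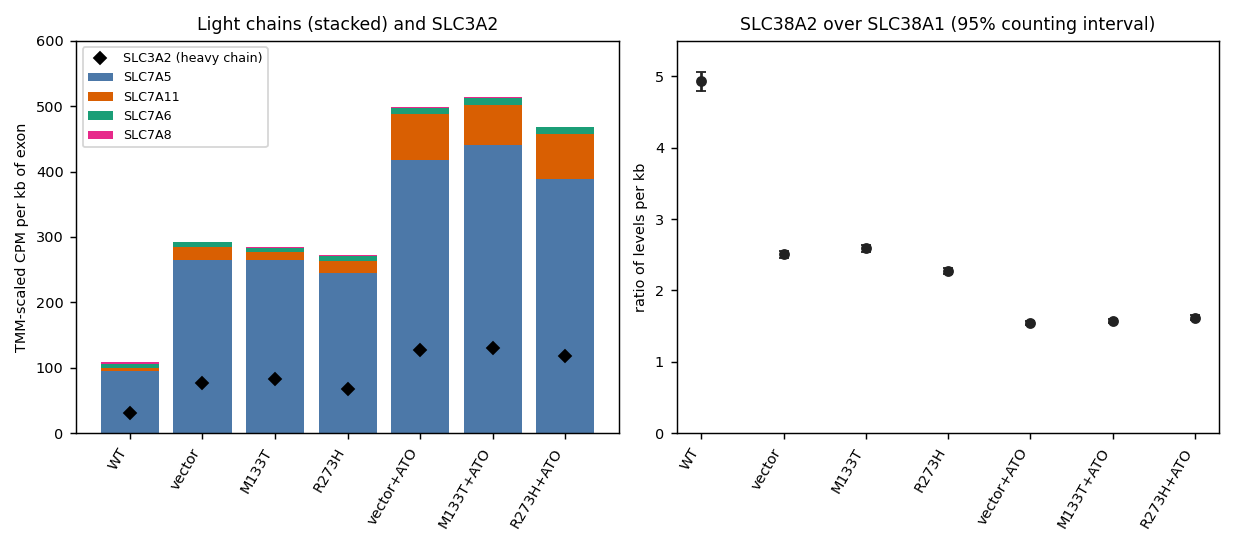
Left, light chains of SLC3A2 as stacked bars in TMM-scaled CPM per kb of exon for each library, with SLC3A2 as black diamonds; right, the ratio of SLC38A2 to SLC38A1 per kb, with 95% counting intervals. SLC7A5 makes up 82.8% to 93.1% of each bar, and the ratio on the right falls from 4.93 in WT cells to 1.54 to 1.62 with ATO.

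The 10 genes were set beside 42 other amino acid transporters of the plasma membrane and lysosome, of which 19 passed the filter in the ATO test. Of these, 7 were called higher and 5 lower, with a median log2 fold change of 0.02. Over all genes tested, 22.3% were called higher and 20.9% lower. SLC7A11 rose by 4.16-fold (log2 fold change 2.06, SE 0.099, adjusted p = 1.52e-05), from 185 to 677 CPM in vector, from 113 to 589 CPM in M133T and from 174 to 672 CPM in R273H cells. Its fold was larger in M133T cells than in the other lines, by 0.48 on the log2 scale (SE 0.092). Of the 3 lines, M133T cells had the lowest level of SLC7A11 both without ATO and with it. SLC38A6, an orphan member of the glutamine carrier family, rose by 1.82-fold, from 1.57 to 2.42 CPM in the untreated lines to 3.2 to 4.1 CPM with ATO (adjusted p = 0.00384). SLC38A3 (SNAT3), a glutamine carrier best known from liver and kidney, rose by 1.55-fold, from 1.78 to 2.25 CPM to 2.89 to 3.38 CPM (adjusted p = 0.0231). That call was lost with DESeq2 (adjusted p = 0.0958), without the vector pair (0.0504) and without the M133T pair (0.0628). SLC6A17, a vesicular carrier of neutral amino acids, fell to 0.602-fold, from 40.2 to 42.5 CPM in the untreated lines to 23.1 to 26.5 CPM with ATO (adjusted p = 0.000144).

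The remaining 8 calls were smaller than 1.5-fold. SLC43A2, PQLC2, SLC36A4 and SLC38A7 were higher, by 1.19-fold to 1.49-fold, and SLC1A1, SLC7A8, SLC7A2 and SLC38A10 were lower, at 0.702-fold to 0.836-fold. In WT cells 21 of the 42 passed the filter, with 4 called higher, 2 lower and a median of 0.04. The shares over all genes in that test were 12.4% higher and 12.8% lower. SLC7A11 was lower there at 0.314-fold (49.7 CPM; adjusted p = 0.0039), as was SLC38A5 (0.75-fold; adjusted p = 0.0413). The 4 called higher were SLC6A6, SLC7A8, SLC1A1 and SLC1A2, the last from 14 counts in WT cells and 1 to 4 in the other lines. These genes of the WT comparison and the 8 smaller calls were named after their values were seen.

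Of 10 mitochondrial amino acid carriers, 9 were tested. With ATO 1 was called higher, the glycine carrier SLC25A38 (1.28-fold; adjusted p = 0.00516), and 2 lower, the glutamate carrier SLC25A22 (0.715-fold; adjusted p = 0.000603) and the sideroflexin SFXN3 (0.724-fold; adjusted p = 0.00101). In WT cells SFXN3 was called higher (1.64-fold), and SLC25A13 (0.582-fold) and SLC25A29 (0.758-fold) lower, also named after their values were seen. The median over the 9 was -0.10 with ATO and -0.14 in WT cells. The shares over all genes were 22.3% higher and 20.9% lower with ATO, and 12.4% and 12.8% in WT cells. With 9 genes, the counts cannot be told from these shares.

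**Figure D4:**
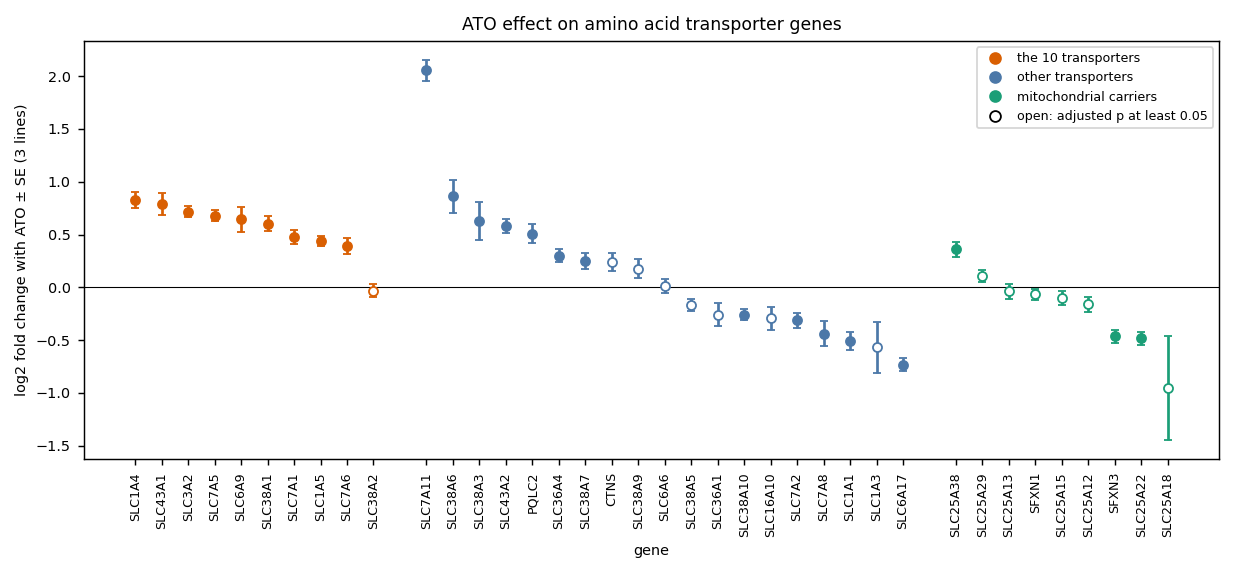
Log2 fold change with ATO over the 3 lines, with its standard error, for the 10 transporters (orange), 19 other amino acid transporters (blue) and 9 mitochondrial carriers (green); open points did not pass the test. Among the 10, 9 points are filled and all of these lie above 0, while the other transporters lie on both sides of 0 with SLC7A11 at 2.06.

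Regulators known for this group of genes were read in the same fits. ATF4 was higher with ATO by 0.36 on the log2 scale (SE 0.05; adjusted p = 0.00113) and lower in WT cells, with a log2 fold change of -1.01 (SE 0.14; adjusted p = 0.00187). Its level was 472, 495 and 408 CPM in vector, M133T and R273H cells, 609, 619 and 541 CPM with ATO, and 229 CPM in WT cells. ASNS, the asparagine synthetase gene and a textbook ATF4 target, had log2 fold changes of 0.63 with ATO (adjusted p = 0.000166) and -1.93 in WT cells (adjusted p = 0.000138). DDIT3 (CHOP), a stress response transcription factor, had 0.65 (adjusted p = 0.000611) and -1.44 (adjusted p = 0.00128). MYC did not pass the test with ATO (-0.12; adjusted p = 0.0942) or in WT cells (-0.27; adjusted p = 0.13). These are transcript levels, and the part of these factors in the transporter levels was not tested.

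To show which other transcripts followed the leucine exchanger, the log2 level of each gene was correlated over the 7 libraries with the mean of SLC7A5 and SLC3A2, among 1154 genes whose mean reached 10 CPM and whose range reached 1 on the log2 scale. The 5 closest outside the 10 genes were PHGDH, the first enzyme of serine synthesis (r = 0.9988), EIF3C, a translation initiation subunit (0.9974), CARS, cysteinyl-tRNA synthetase (0.9971), TXNDC12, a thioredoxin-domain protein of the endoplasmic reticulum (0.9968), and KCNG1, a potassium channel subunit (0.9963). PHGDH went from 47.6 CPM in WT cells through 125 to 147 CPM in the untreated lines to 231 to 242 CPM with ATO. EIF3C has a near-identical copy, EIF3CL, so its value is uncertain. Of the 10 genes themselves, SLC1A5 (0.998), SLC1A4 (0.994), SLC7A1 (0.982), SLC6A9 (0.98) and SLC38A1 (0.943) correlated with the same mean, while SLC38A2 and SLC7A6 varied too little and SLC43A1 was too low to enter. The 7 libraries fall into 3 sets (WT, untreated and ATO) and share the scaling, so these correlations describe that order and carry no p.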

How the data were processed

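The deposited table holds raw counts, whole numbers for each gene, in 1 column for each of 7 libraries. According to protocols in the labels, libraries were prepared with a TruSeq RNA kit and sequenced as paired 150-bp reads on a HiSeq Xten. FastQC, cutadapt, STAR and hg38 are named in the submitters' processing notes, without versions; which program, annotation and strand option made the counts is not given in the sources used here. All 19699 identifiers were found in GENCODE 29, which gave coordinates, exon lengths and GC contents.

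Counts were scaled by TMM and tested with edgeR 4.0.16 in R 4.3.3 (filterByExpr; quasi-likelihood test; Benjamini-Hochberg at 0.05 over all genes tested). The ATO effect common to the lines used 6 libraries with line as a block (2 residual degrees of freedom), the tests of single lines the same 6 (1 degree), and the WT test the 4 untreated libraries (2 degrees). The block rests on libraries sharing a cell line; deviations of paired libraries correlated at -0.03 in vector, 0.06 in M133T and 0.09 in R273H cells over 13572 genes. Pairs of libraries were described by ratios of scaled counts with 95% Clopper-Pearson intervals and called at 2-fold on log2(CPM + 1), over 12661 genes with at least 1 CPM in 1 library. Alternatives were RLE size factors, no filter, DESeq2 1.42.0, a length and GC correction (mgcv 1.9.3), no block, other pseudocounts and leaving out libraries.

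The genes and lists were chosen with earlier results of these data known. All 10 genes are named; other transporters are named when called with ATO at 1.5-fold or more. Further sets were given as values only: regulators, markers, and the 5 transcripts closest in pattern. The level of the targeted gene and 1 promoter stretch are not reported here.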

Additional observations from a re-analysis of the deposited data

Results flagged for a closer look

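The ATO effect differed between the lines by test for 2 of the 10 genes. In M133T cells it was larger than the mean effect of the vector and R273H cells by 0.3325 on the log2 scale for SLC7A6 and by 0.2928 for SLC38A1 (edgeR's quasi-likelihood test; adjusted p = 0.0198 and 0.0304). With ATO against without, SLC7A6 had a ratio of 1.53 in M133T cells (95% counting interval 1.45 to 1.62), 1.2 in vector cells (1.14 to 1.27) and 1.24 in R273H cells (1.17 to 1.31). For SLC38A1 the ratios were 1.74 (1.71 to 1.78), 1.46 (1.43 to 1.49) and 1.4 (1.37 to 1.42) in the same order. SLC7A6OS, whose exons overlap those of SLC7A6, went from 36.6 to 30.7 CPM with ATO in M133T cells. It went from 28.0 to 32.7 CPM in vector and from 30.3 to 30.6 CPM in R273H cells. The part of this overlap in the SLC7A6 values was not tested. Over all genes, 8.27% of 13974 were called in this test. Both calls were lost with DESeq2 (adjusted p = 0.535 for SLC7A6 and 0.072 for SLC38A1) and after the length and GC correction (0.13 and 0.363). The test has 1 residual degree of freedom, against 157.6 for the spread pooled over genes. Each line has 1 library per condition.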

How the results depend on the processing

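The 9 rises with ATO were called in all 8 alternatives to that test, and 7 of the 8 lower values in WT cells in all 7 alternatives to theirs; the exception was SLC38A1. After the length and GC correction 1 of the 10 genes, SLC38A2, was called lower with ATO and 1, again SLC38A2, higher in WT cells. Without the replicate block 9 of the 10 were still called higher, among 2620 genes higher and 2656 lower. Genes called with ATO numbered 5859, and 2914 (without the vector pair) to 6839 (without the M133T pair) with a pair left out, where SLC38A2 ran from -0.0896 (without the M133T pair) to 0.0425 (without the vector pair) on the log2 scale and so changed sign. Genes called in WT cells numbered 3508, and 2020 (without vector) to 4519 (without M133T) with a library left out. For M133T against the other lines, genes of the 10 called fell from 2 to 1 without the filter, 0 with DESeq2 and 0 with the correction, and all genes from 1156 to 157 with DESeq2 and 656 with the correction. For R273H, 31 genes became 101 without the filter, 4 with DESeq2 and 6 with the correction, where SLC7A1 changed sign (0.0026). For vector, 0 became 5, 2 and 10, and SLC1A5 changed sign with the correction (-0.0044). In R273H cells with ATO, 1 of the 10 genes reached 2-fold with a pseudocount of 0.25, and 2 with the correction. The share of all genes upward, 0.592%, belongs to the main setting, and the share under these settings is not given here. Per coding length, 3 genes took another place in the order of vector cells. The cause of these changes was not tested. Other transporters called lower with ATO fell from 5 to 2 without the vector pair, and mitochondrial carriers called with ATO became 2 higher and 4 lower with the correction. Every edgeR fit, main or alternative, pooled the spread over genes to some degree. The tests of single lines and the fits with a pair or library left out had 1 residual degree of freedom. SLC43A1, with 48 to 428 counts, carries the widest counting intervals.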
